A study of Mus musculus with 16 samples.

Results

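Homeostatic microglia marker genes were followed here through the lumbar spinal cord of mice with and without the SOD1G93A transgene. The 10 genes were P2ry12, P2ry13, Tmem119, Cx3cr1, Siglech, Gpr34, Sall1, Selplg, Olfml3 and Fcrls, taken by symbol from the 23284 genes of the count table, and all 10 passed the filter on low counts. Each was found once in the table. The groups, each of 4 mice aged 150 days, were Atg7 cKO with SOD1G93A (cKO_SOD1), Atg7 cWT with SOD1G93A (cWT_SOD1), Atg7 cKO without the transgene (cKO) and Atg7 cWT without it (cWT). SOD1G93A mice carry a mutant human superoxide dismutase 1 linked to amyotrophic lateral sclerosis, and Atg7 is an enzyme needed to form autophagosomes. The series title places the loss of autophagy in motor neurons, the Cre line is not given in the sources used here, and the RNA came from whole cord. The comparisons ask what the transgene does to the marker genes in each Atg7 genotype, and what the Atg7 genotype does with and without the transgene.

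Microglia are the resident macrophages of the brain and spinal cord. In undisturbed tissue they carry a set of receptors with which they sense nucleotides, lipids and neuronal ligands, and this set is used to tell them from other macrophages. In mouse models of neurodegeneration, single microglia that enter the disease-associated state are known to lower several of these genes, including P2ry12, Tmem119 and Cx3cr1, while microglia also multiply. In whole-cord RNA, fewer cells of a type and less RNA per cell cannot be told apart, and a level here is that of the tissue.

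The libraries held between 14989026 and 20892530 counted reads. Motor neuron, astrocyte and lumbar Hox genes of a cord list were detected in all groups. In whole cord the Atg7 row did not separate the genotypes: it averaged 27.2 ± 4.50 CPM (counts divided by normalised library size) in cKO_SOD1 and 24.1 ± 4.26 CPM in cWT_SOD1 cords, and 27.98 ± 1.06 CPM in cKO and 31.4 ± 2.51 CPM in cWT cords (SD, n = 4 each). The adjusted p of the genotype was 0.220 with the transgene and 0.9995 without it, by edgeR's quasi-likelihood test with Benjamini-Hochberg adjustment over 15426 genes, as in all tests that follow. The Sod1 row is the mouse gene and checks no human transgene.

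With the transgene and intact Atg7, all 10 marker genes rose in the tissue, but by very unequal amounts. Between cWT_SOD1 and cWT cords, the increase ran from 1.31-fold for Sall1 to 19.6-fold for Fcrls, with a median of 3.25-fold. The 4 cWT_SOD1 libraries lay above all 4 cWT libraries for each of the 10 genes. Of all genes tested, 33.2% were called higher and 27.6% lay wholly above in the same comparison, and the median log2 fold change over all genes was 0.01. Adjusted p ran from 1.58e-11 for Cx3cr1 to 2.83e-04 for Sall1.

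Markers of neurons and glia moved in the same comparison, and their part in the results was not tested. Of the 11 genes of the cord list, 9 fell in cWT_SOD1 over cWT cords, among them every neuronal, Hox and myelin gene listed, where 33.1% of all genes were called lower, and the astrocyte genes Gfap and Aqp4 rose. Snap25, a synaptic protein of neurons, averaged 2816 CPM in cKO_SOD1, 1400 CPM in cWT_SOD1, 3287 CPM in cKO and 3365 CPM in cWT cords. Chat, which makes acetylcholine in motor neurons, averaged 13.95, 14.7, 32.8 and 46.2 CPM in the same group order, and Gfap 4472, 12834, 1573 and 1429 CPM. In cKO_SOD1 over cWT_SOD1 cords 6 of the 11 were higher, Snap25 among them, where 29.1% of all genes were called higher, 2 were lower, and Chat did not pass (adjusted p 0.713).

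**Figure D1:**
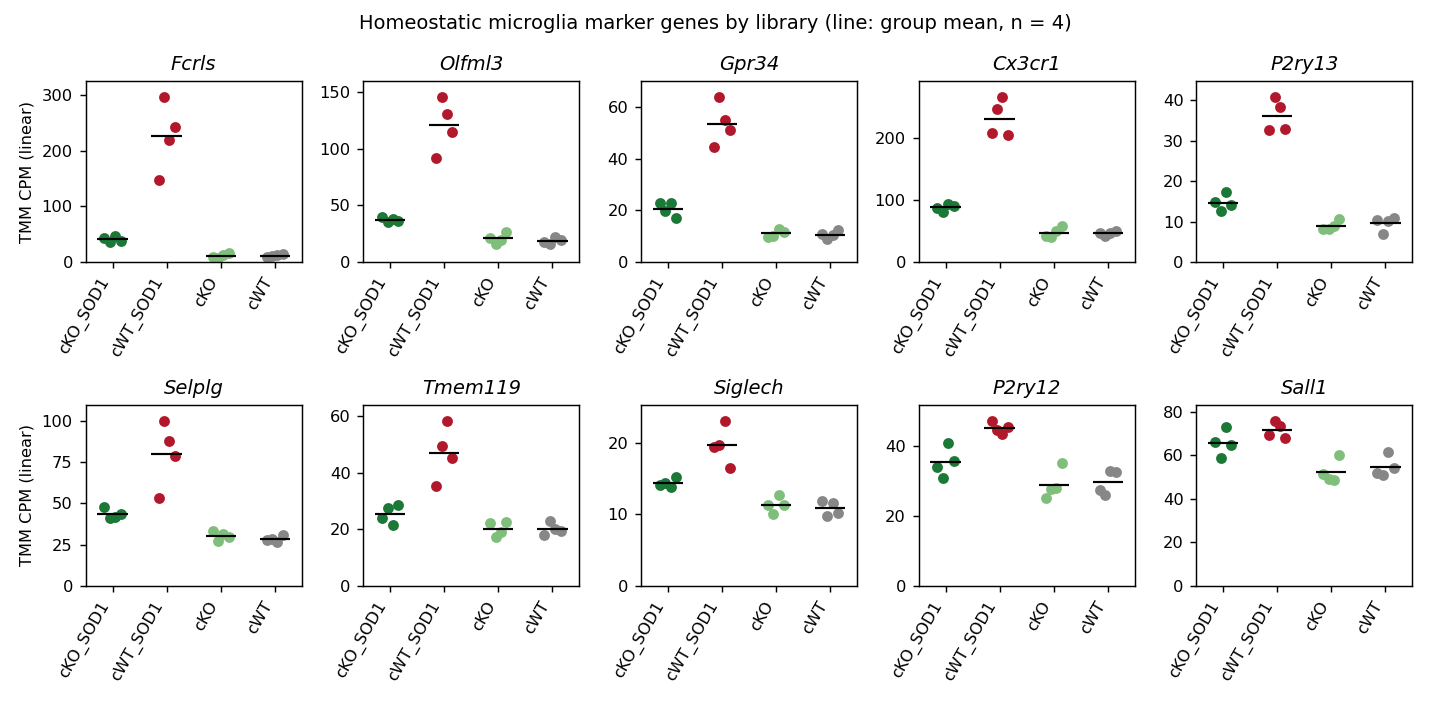
CPM of each of the 10 marker genes (linear vertical axis, one panel a gene) in the 4 libraries of each group, each point a library and each line a group mean. The cWT_SOD1 libraries lie above all cWT libraries in every panel, by little for Sall1 (67.8 CPM and above, against 61.4 CPM and below) and by far for Fcrls (147 CPM and above, against 13.7 CPM and below).

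Sall1, a zinc finger transcription factor that maintains microglial identity, moved least. It had 69.5, 75.6, 73.3 and 67.8 CPM in cWT_SOD1 replicates 1 to 4, and 52.0, 50.9, 61.4 and 53.9 CPM in cWT replicates 1 to 4. The groups were separate, the highest cWT library falling short of the lowest cWT_SOD1 library by a small margin. Its log2 fold change was 0.39 (SE 0.08).

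Among the G protein-coupled receptors, 3 sense nucleotides or a lipid. P2ry12, the ADP receptor that steers microglial processes to injury, had 47.1, 44.5, 43.4 and 45.6 CPM in cWT_SOD1 cords, and 27.5, 25.9, 32.8 and 32.6 CPM in cWT cords. The cWT_SOD1 libraries hardly differed from one another, and the groups did not overlap. The log2 fold change was 0.60 (SE 0.10, adjusted p 5.28e-05). P2ry13, a second ADP receptor, had 32.7, 40.6, 38.2 and 32.8 CPM in cWT_SOD1 and 10.4, 6.85, 10.1 and 10.9 CPM in cWT cords. Its log2 fold change was 1.91 (SE 0.13), so that the pair of ADP receptors rose to different degrees. Gpr34, a receptor for lysophosphatidylserine, averaged 53.6 CPM in cWT_SOD1 and 10.7 CPM in cWT cords, a 5.02-fold increase.

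Cx3cr1, the receptor of the neuronal chemokine fractalkine, had 208, 246, 265 and 204 CPM in cWT_SOD1 cords, and 46.0, 41.7, 47.4 and 50.1 CPM in cWT cords. All cWT_SOD1 libraries were several times above the highest cWT library. The log2 fold change was 2.32 (SE 0.11), and its adjusted p of 1.58e-11 was the smallest among the 10 genes.

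The 4 other surface proteins spanned nearly the whole range. Fcrls, a scavenger receptor related to Fc receptors, had 147, 295, 219 and 243 CPM in cWT_SOD1 cords, and 9.47, 10.6, 12.5 and 13.7 CPM in cWT cords. Replicate 1 was the lowest of the cWT_SOD1 libraries and still lay far above every cWT library. The log2 fold change was 4.29 (SE 0.23, adjusted p 1.01e-10), larger than that of any other marker gene. Selplg, the P-selectin glycoprotein ligand, rose 2.81-fold, and its CPM ran from 53.2 to 99.9 in cWT_SOD1 and from 26.9 to 30.7 in cWT cords. Tmem119, a microglial transmembrane protein, rose 2.34-fold. Siglech, a member of the Siglec family, rose 1.82-fold, with 19.5, 19.7, 23.1 and 16.5 CPM in cWT_SOD1 and 11.9, 9.82, 11.6 and 10.1 CPM in cWT cords. Its groups were apart, yet the change was a small part of that of Fcrls.

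Olfml3, a secreted protein with an olfactomedin domain, had 91.7, 145, 131 and 115 CPM in cWT_SOD1 cords, and 17.4, 16.2, 21.8 and 19.9 CPM in cWT cords. It was second to Fcrls in the size of the change, at 2.68 on the log2 scale (SE 0.14, adjusted p 9.39e-11). Replicate 1 was again the lowest cWT_SOD1 library, as it was for Gpr34, Selplg, Tmem119 and, by a small margin, P2ry13, but not for P2ry12, Sall1, Siglech or Cx3cr1.

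With Atg7 loss, the transgene raised fewer of the genes and by less. Between cKO_SOD1 and cKO cords, 8 of 10 passed the test as higher and 7 had no overlap between the groups, against 4.80% and 9.91% of all genes tested. The median was 1.53-fold. Fcrls had 43.4, 36.7, 47.1 and 38.3 CPM in cKO_SOD1 and 9.39, 7.22, 12.4 and 17.0 CPM in cKO cords, and rose 3.58-fold (log2 1.84, SE 0.22, adjusted p 5.48e-05). Cx3cr1 had 87.4, 80.8, 94.1 and 90.4 CPM in cKO_SOD1 and 41.8, 41.1, 49.3 and 57.9 CPM in cKO cords. Both genes were separate between the groups, although cKO replicate 4 stood above the other cKO libraries. The log2 fold change of Cx3cr1 was 0.89 (SE 0.10, adjusted p 3.96e-05).

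Gpr34 rose 1.87-fold, Olfml3 1.77-fold, P2ry13 1.64-fold and Selplg 1.43-fold, with adjusted p between 2.91e-04 for Gpr34 and 0.0242 for Selplg. Siglech had 14.1, 14.4, 13.8 and 15.3 CPM in cKO_SOD1 and 11.4, 10.03, 12.7 and 11.3 CPM in cKO cords, close but not overlapping, at an adjusted p of 0.0450. Sall1 had 66.3, 58.5, 72.9 and 64.5 CPM in cKO_SOD1 and 51.5, 49.2, 48.6 and 59.9 CPM in cKO cords. It passed the test with a log2 fold change of 0.33 (adjusted p 0.0151) although cKO replicate 4 overlapped the lowest cKO_SOD1 library. P2ry12 at 34.0, 30.7, 40.9 and 35.6 CPM in cKO_SOD1 and 25.0, 27.7, 28.04 and 35.1 CPM in cKO cords did not pass (log2 fold change 0.29, adjusted p 0.108), nor did Tmem119 (0.32, adjusted p 0.174).

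The weakest of these calls rest on single libraries. Siglech lost its call without any 1 of the 4 cKO_SOD1 libraries, cKO replicates 1, 2 or 4, or cWT replicates 1 or 3, Sall1 without cKO_SOD1 replicate 3, cKO replicate 2 or cKO replicate 3, and Selplg without cKO_SOD1 replicates 1 or 4 or cKO replicates 2 or 4, so that 5 genes were called without cKO replicate 2. P2ry12 passed without cKO replicate 4 (log2 fold change 0.39, adjusted p 0.0202).

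The order of the genes by size of change was similar in both genotypes. Over the 10 genes, the log2 fold changes for the transgene in cKO and in cWT cords, which share no library, had a Pearson r of 0.965 and a Spearman rho of 0.903, given as a description. Fcrls was first in both, while Sall1, P2ry12 and Siglech were among the lowest. For 9 of the genes the log2 fold change in cKO cords was between 26.4% (Tmem119) and 47.4% (P2ry12) of that in cWT cords. For Sall1 it was 83.4%, a ratio of small changes, 0.33 in cKO and 0.39 in cWT cords, each with an SE of 0.08. No error was computed for any of these ratios.

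**Figure D2:**
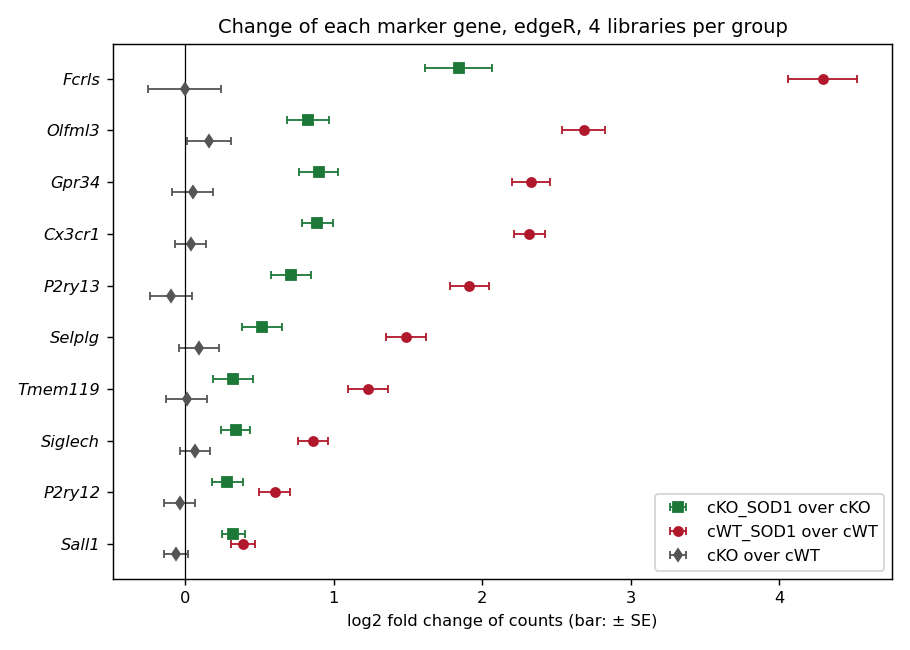
Log2 fold change (points) with its standard error (bars) of the 10 marker genes for the transgene in cKO cords, the transgene in cWT cords, and Atg7 loss without the transgene, one row a gene. The transgene points of cWT cords lie right of those of cKO cords for every gene, by least for Sall1 (0.33 in cKO, 0.39 in cWT), and the points for Atg7 loss alone lie near 0, from -0.09 to 0.16.

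The interaction term, which tests whether the transgene effect differs between the genotypes, was negative for all 10 genes and passed for 8, against 21.8% of all genes called lower in that test. Fcrls had the largest difference in log2 fold change at -2.45 (SE 0.32, adjusted p 1.67e-05), followed by Olfml3 at -1.85, Cx3cr1 and Gpr34 at -1.43 each and P2ry13 at -1.20. Selplg at -0.97, Tmem119 at -0.90 and Siglech at -0.52 (adjusted p 0.00602) also passed. The transcription factor and the better known ADP receptor were those that did not: Sall1 was at -0.07 (SE 0.11, adjusted p 0.667) and P2ry12 at -0.32 (SE 0.14, adjusted p 0.0841). P2ry12 passed without cKO_SOD1 replicate 3 (adjusted p 0.0286) or without cKO replicate 1 (adjusted p 0.0427).

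Set directly against each other, cKO_SOD1 cords held less of 9 of the 10 transcripts than cWT_SOD1 cords, and for the same 9 genes the groups did not overlap. Of all genes tested, 29.1% were called lower and 24.1% lay wholly below. Fcrls was 5.46-fold lower (log2 fold change -2.45, SE 0.21, adjusted p 5.87e-08), Olfml3 3.24-fold, Cx3cr1 2.62-fold, Gpr34 2.60-fold and P2ry13 2.45-fold lower. Tmem119 was 1.86-fold and Selplg 1.83-fold lower, and for Selplg the highest cKO_SOD1 library, at 48.1 CPM, came close to cWT_SOD1 replicate 1 at 53.2 CPM. Siglech (1.37-fold, adjusted p 6.30e-04) and P2ry12 (1.28-fold, adjusted p 0.00629) were lower by small amounts. Sall1 overlapped between cKO_SOD1 (58.5 to 72.9 CPM) and cWT_SOD1 (67.8 to 75.6 CPM) cords and did not pass (log2 fold change -0.13, SE 0.08, adjusted p 0.177). This comparison shares its cWT_SOD1 libraries with the transgene comparison in cWT cords.

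Without the transgene, Atg7 loss moved none of the genes past the test. All 10 overlapped between cKO and cWT cords, and the log2 fold changes ran from -0.09 for P2ry13 to 0.16 for Olfml3. By edgeR's quasi-likelihood test 0 of 10 had an adjusted p under 0.05, 0 had an unadjusted p under 0.05, and DESeq2 called 0. Over all genes 0.0259% were called. The standard errors set the limit of what could be seen, from 0.08 for Sall1 to 0.24 for Fcrls.

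Within a group, the genes can be ordered by FPKM, the level per length of transcript. In cWT cords they filled a narrow range from 13.01 ± 1.48 FPKM for P2ry12 to 4.04 ± 0.753 FPKM for P2ry13. P2ry12, Cx3cr1, Olfml3, Selplg, Sall1 and Tmem119 came first, each overlapping its neighbour, then a gap to Fcrls and Gpr34, and a second gap to Siglech and P2ry13. The order was nearly the same in cKO cords, where Olfml3 led with 13.4 ± 2.77 FPKM and P2ry13 came last with 3.79 ± 0.486 FPKM, and a single gap below Sall1 divided the genes.

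In cWT_SOD1 cords the range was far wider. Fcrls led with 124 ± 32.2 FPKM, ahead of Olfml3 at 79.3 ± 14.2 FPKM and Cx3cr1 at 66.1 ± 7.95 FPKM, which overlapped their neighbours. Below a gap followed Selplg, Gpr34, Tmem119 and P2ry12, from 33.4 ± 7.89 to 20.5 ± 0.959 FPKM, then P2ry13 and Sall1, then Siglech at 8.58 ± 1.33 FPKM. P2ry12, at the top of the order in cWT cords, was thus among the lower levels there. In cKO_SOD1 cords the genes from Cx3cr1 at 25.2 ± 1.84 FPKM to Gpr34 at 12.1 ± 1.74 FPKM formed one chain of overlapping neighbours, and P2ry13 and Siglech lay below a gap.

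The 10 genes summed to 157 ± 9.80 FPKM in cKO_SOD1, 418 ± 65.8 FPKM in cWT_SOD1, 93.5 ± 11.97 FPKM in cKO and 91.0 ± 6.04 FPKM in cWT cords. The share of Fcrls in that sum was 14.3% ± 0.956 in cKO_SOD1, 29.3% ± 3.97 in cWT_SOD1, 6.42% ± 1.54 in cKO and 6.73% ± 0.697 in cWT cords. The share of P2ry12 went the other way, with 10.2% in cKO_SOD1, 5.03% in cWT_SOD1, 13.8% in cKO and 14.3% in cWT cords. Sall1 likewise held 8.23%, 3.46%, 10.8% and 11.5% in the same group order. Cx3cr1 kept between 14.1% and 15.99% in every group. Shares of one sum depend on each other, so a larger share of Fcrls leaves less for the other genes together. Not each of them fell. Olfml3 held 18.9% in cWT_SOD1 and 13.1% in cWT cords, and Gpr34 7.59% and 6.64%. The mean shares of P2ry13, Tmem119, Siglech and Selplg were lower in cWT_SOD1 than in cWT cords, as for P2ry12 and Sall1.

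**Figure D3:**
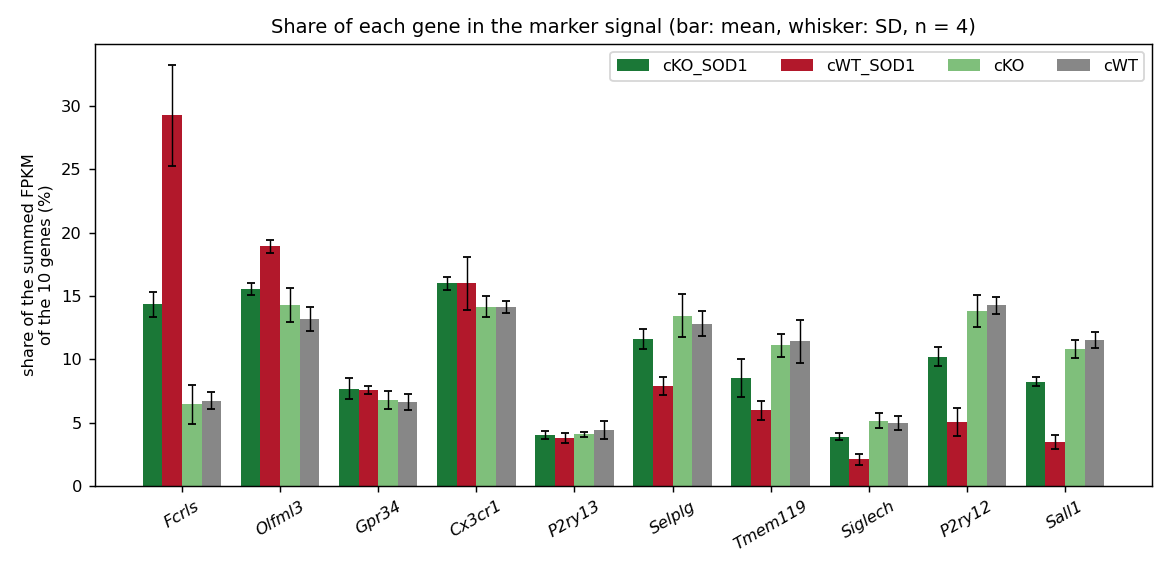
Mean share (percent, linear axis from 0) of each marker gene in the summed FPKM of the 10 genes, with the SD over 4 libraries, for cKO_SOD1, cWT_SOD1, cKO and cWT cords. Fcrls takes 29.3% in cWT_SOD1 and 14.3% in cKO_SOD1 cords, against 6.42% in cKO and 6.73% in cWT cords, while P2ry12 and Sall1 take their smallest shares in cWT_SOD1 cords.

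Single pairs show the same in each library. These pairs were chosen after their values were seen and carry no test. P2ry13 over P2ry12, the ratio of the ADP receptors by FPKM, was 0.381 to 0.416 in cKO_SOD1, 0.671 to 0.882 in cWT_SOD1, 0.279 to 0.311 in cKO and 0.253 to 0.366 in cWT libraries. Fcrls over P2ry12 was 1.296 to 1.53 in cKO_SOD1, 3.79 to 8.04 in cWT_SOD1, 0.313 to 0.574 in cKO and 0.418 to 0.501 in cWT libraries. In both ratios the cWT_SOD1 libraries were highest, the cKO_SOD1 libraries next and the groups without the transgene together. Selplg over Tmem119, neighbours on chromosome 5, overlapped between all groups, from 0.987 to 1.60.

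The loci below are from the deposited tables in build mm9. P2ry12 (chr3:59020193-59066753) and P2ry13 (chr3:59011814-59014804) are 5388 bases apart, and both lie within the span of Med12l (chr3:58810900-59122334). Gpr34 (chrX:13209895-13217984) lies within Cask (chrX:13094208-13423667). No source used here states whether counting used strand, and reads of host and guest genes may have been assigned to either. Of the hosts, Med12l averaged 67.8 CPM in cKO_SOD1, 41.1 CPM in cWT_SOD1 and 69.2 CPM in cWT cords. Cask averaged 91.5, 79.2 and 92.4 CPM in the same order. In cWT_SOD1 over cWT cords the log2 fold change was -0.75 for Med12l and -0.22 for Cask. The part of host reads in the guest counts was not tested. Tmem119 (chr5:114243738-114250361) and Selplg (chr5:114267807-114280510) are 17445 bases apart and overlap no other gene of the tables. The same holds for Cx3cr1 (chr9:119957811-119977400), Siglech (chr7:63023548-63034203), Sall1 (chr8:91551143-91568061), Olfml3 (chr3:103539317-103541924) and Fcrls (chr3:87054887-87067446).

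Promoter windows are shown for 3 of the genes that passed the test in all 3 comparisons involving the transgene. Cx3cr1 and Siglech, which also passed, have windows that are not shown. The windows shown are those of Fcrls, P2ry13 and Olfml3, which include the 2 genes with the largest changes. Each is the 250 bases before the RefSeq start in GRCm38.p6, on the minus strand, 5′ to 3′, with GAGGAAG, the core of sites bound by the macrophage factor PU.1, in capitals (Fcrls chr3:87263525-87263774, P2ry13 chr3:59210883-59211132, Olfml3 chr3:103738002-103738251):
Fcrls: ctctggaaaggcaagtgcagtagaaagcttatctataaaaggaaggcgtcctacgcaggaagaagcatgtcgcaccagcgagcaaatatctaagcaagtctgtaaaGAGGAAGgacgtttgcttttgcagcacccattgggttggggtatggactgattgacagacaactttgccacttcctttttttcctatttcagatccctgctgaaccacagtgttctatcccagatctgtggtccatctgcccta
P2ry13: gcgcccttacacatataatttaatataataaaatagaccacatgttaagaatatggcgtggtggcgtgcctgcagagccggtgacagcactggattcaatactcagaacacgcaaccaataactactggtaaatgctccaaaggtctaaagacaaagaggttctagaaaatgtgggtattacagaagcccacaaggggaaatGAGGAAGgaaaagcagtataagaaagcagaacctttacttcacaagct
Olfml3: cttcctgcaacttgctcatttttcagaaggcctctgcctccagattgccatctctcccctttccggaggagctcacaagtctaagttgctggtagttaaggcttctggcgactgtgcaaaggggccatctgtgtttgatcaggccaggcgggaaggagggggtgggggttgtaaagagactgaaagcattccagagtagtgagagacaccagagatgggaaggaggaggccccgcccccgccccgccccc
The letters GAGGAAG or their reverse complement CTTCCTC occur in the windows of Fcrls, from base -144, and of P2ry13, from base -48, counted from the gene start. The window of Olfml3 holds neither. Of the 7 marker genes with a RefSeq window, 2 held the motif, both printed here, and 10.6% of 32851 windows of all genes did. The windows of Cx3cr1, Siglech, P2ry12 and Sall1, which are not printed, held no match. For P2ry12 and some of the windows of Sall1, the bases after the start were found in no annotated transcript of the gene. Those windows may not lie at a start in use. A match is a description of the letters and not a bound site. Shorter or variant forms of the site were not searched, and a link of the motif to the changes was not tested.

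General macrophage genes rose as well, so each marker gene was also set against them. The reference was the geometric mean count of Csf1r, Itgam, Ptprc, Spi1 and Irf8, which microglia share with other macrophages and which rose between 4.78-fold (Csf1r) and 12.2-fold (Ptprc) in cWT_SOD1 over cWT cords. The reference entered the fit as a known library size, so its own error is shared by all genes. Adjusted p relative to it may therefore be too small. Against the reference, 8 of the 10 genes were lower and 1 higher in cWT_SOD1 than in cWT cords. The background is steep, since 96.6% of all genes tested were lower and 1.32% higher on that scale, so the count itself singles out none. That scale lowers every marker gene by nearly the same amount. Their order is therefore that of the plain log2 fold changes, and their spread is about the same. The median over all genes was -2.87, below the value of every marker gene. Sall1 had a relative log2 fold change of -2.49, P2ry12 of -2.26, Siglech of -2.03, Tmem119 of -1.69, Selplg of -1.44 and P2ry13 of -0.98. These 6 lay below the range of the 5 reference genes themselves, which ran from -0.66 to 0.68 and is set around 0 by the scale. Cx3cr1 (-0.58), Gpr34 (-0.57) and Olfml3 (-0.24) lay within that range, and Fcrls at 1.36 (adjusted p 7.65e-11) lay above it.

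Per library, Sall1 stood at 0.705 to 1.06 times the reference in cWT_SOD1 and at 4.21 to 5.31 times in cWT cords, on the count scale. P2ry12 stood at 0.415 to 0.717 times in cWT_SOD1 and at 2.19 to 2.83 times in cWT cords. The groups were far apart in both. Fcrls stood at 2.16 to 2.79 times in cWT_SOD1 and at 0.821 to 1.08 times in cWT cords, the opposite direction. Olfml3 stood at 1.29 to 1.40 times in cWT_SOD1 and at 1.36 to 1.88 times in cWT cords, with overlap and no call (adjusted p 0.137). With Csf1r alone as the reference, Olfml3 was higher at 0.43 (adjusted p 0.00154), and Cx3cr1 at 0.076 and Gpr34 at 0.081 did not pass.

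In cKO_SOD1 over cKO cords, 5 genes were lower than the reference and 1 higher, beside 92.8% and 0.551% of all genes. P2ry12 (-0.76), Sall1 (-0.73), Tmem119 (-0.73), Siglech (-0.72) and Selplg (-0.55) were lower, and Fcrls (0.83) was higher. With Spi1 and Irf8 as the reference, 9 genes were lower, and with Csf1r alone or the sum of the 5 genes 4 were, Selplg losing its call (-0.16, adjusted p 0.183, and -0.22, adjusted p 0.0784). Between cKO_SOD1 and cWT_SOD1 cords the signs turned. The cWT_SOD1 libraries enter this comparison and that with cWT cords on opposite sides, so their signs are not independent. Relative to the reference, 8 genes were higher in cKO_SOD1 than in cWT_SOD1 cords and 1, Fcrls at -0.70, was lower, beside 94.2% and 1.12% of all genes. Sall1 had a relative log2 fold change of 1.57, P2ry12 of 1.33 and Siglech of 1.26, above the reference genes' own range of -0.26 to 0.36. Selplg (0.88), Tmem119 (0.86) and P2ry13 (0.42) also lay above that range. The median over all genes was 1.69, above the value of every marker gene. Cx3cr1 (0.33, adjusted p 0.0430) and Gpr34 (0.35, adjusted p 0.0354) were within the range of the reference genes, and Olfml3 at 0.05 did not pass. The calls of Cx3cr1 and Gpr34 were unstable: with 1 library left out Cx3cr1 passed in 5 of 16 fits and Gpr34 in 10 of 16, and under the 4 other settings in 0 and 1. The count of 8 fell to 5 without cKO_SOD1 replicate 3, was 5 to 7 under those settings, and with Csf1r alone as the reference Olfml3 was lower at -0.31 (adjusted p 0.0150) and Cx3cr1 at -0.02.

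**Figure D4:**
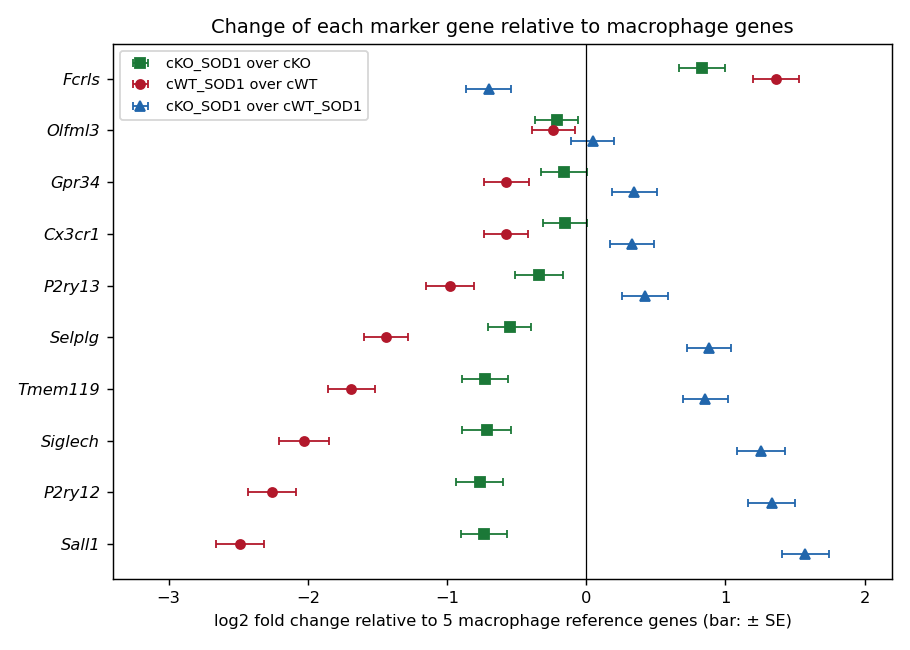
Log2 fold change relative to the geometric mean of 5 macrophage reference genes (points, with standard errors as bars) of each marker gene, for cKO_SOD1 over cKO, cWT_SOD1 over cWT, and cKO_SOD1 over cWT_SOD1. Sall1 lies at -2.49 and Fcrls at 1.36 for cWT_SOD1 over cWT, and the 2 genes lie on the opposite sides for cKO_SOD1 over cWT_SOD1, at 1.57 and -0.70. These comparisons share the cWT_SOD1 libraries, which enter them on opposite sides.

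Other gene lists place these changes among those of related cells. Called higher were 33.2% of all genes in cWT_SOD1 over cWT cords and 4.80% in cKO_SOD1 over cKO cords. In cKO_SOD1 over cWT_SOD1 cords 29.1% were called lower and 29.1% higher. Of 20 further genes of undisturbed microglia, 18 rose in cWT_SOD1 over cWT cords with a median over the list of 3.10-fold, close to that of the 10 marker genes, beside a median over all genes near 1. Pros1, a bridging ligand for cell clearance, rose 5.88-fold. Slc2a5, a fructose transporter, had a log2 fold change of -0.77 and did not pass (adjusted p 0.0512), and between cKO_SOD1 and cWT_SOD1 cords it was the list's 1 gene that was higher, at 3.01 CPM in cKO_SOD1 and 1.496 CPM in cWT_SOD1 cords (adjusted p 0.0141), while 17 were lower. In cKO_SOD1 over cKO cords 8 of the 20 rose. All 20 genes of the disease-associated state rose in cWT_SOD1 over cWT cords, with a median of 8.46-fold, Cst7 averaging 117 CPM in cWT_SOD1 and 0.386 CPM in cWT cords. In cKO_SOD1 over cKO cords 16 of the 20 rose, and all 20 were lower in cKO_SOD1 than in cWT_SOD1 cords.

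Most tested markers of border macrophages also rose in cWT_SOD1 over cWT cords, where 33.2% of all genes were called higher. The part of these and of other immune cells in the result was not tested. Of 10 genes of border macrophages, 9 were tested and 7 rose in cWT_SOD1 over cWT cords, and the list summed to 23.6 to 36.5 CPM in cKO_SOD1, 49.0 to 104 CPM in cWT_SOD1, 19.8 to 27.4 CPM in cKO and 19.0 to 27.5 CPM in cWT libraries. Ms4a7 averaged 9.53 CPM in cWT_SOD1 and 0.284 CPM in cWT cords, and Mrc1, the mannose receptor, 15.8 and 4.76 CPM in the same order. Of 10 T and NK cell genes, 3 were tested and all 3 rose, with sums of 1.35 to 2.29 CPM in cKO_SOD1, 5.04 to 7.02 CPM in cWT_SOD1, 0.955 to 1.61 CPM in cKO and 1.06 to 2.25 CPM in cWT libraries, and Cd8a at 0 in all cWT libraries. Of the T and NK cell genes tested, Cd4 and Il2rb passed the filter on low counts through the cWT_SOD1 libraries. Cd4 had 0.615 to 2.29 CPM there, at most 0.348 CPM in cKO_SOD1 and at most 0.159 CPM in cKO libraries. Il2rb had 0.862 to 1.70 CPM there, and at most 0.466 and 0.341 CPM in the same order. Their rise was thus largely set by the filter and is no separate result. Both lists were highest in the cWT_SOD1 libraries. In cKO_SOD1 over cKO cords 1 of the 9 border macrophage genes and 0 of the 3 T and NK cell genes were called higher, beside 4.80% of all genes. Of 12 monocyte and neutrophil genes found in the table, 4 were tested, and in cWT_SOD1 over cWT cords Ccr2 (adjusted p 0.0975), S100a8 (0.0981), S100a9 (0.190) and Ngp (0.207) did not pass. That list summed to 1.52 to 8.11 CPM in cKO_SOD1, 4.68 to 17.2 CPM in cWT_SOD1, 1.22 to 8.04 CPM in cKO and 1.22 to 7.59 CPM in cWT libraries, and Ccr2, the receptor that defines recruited monocytes, averaged 0.811 CPM in cWT_SOD1 and 0.445 CPM in cWT cords.

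The ligands and upkeep signals of the marker receptors did not all move alike. Of 14 tested, 10 rose and 1 fell in cWT_SOD1 over cWT cords, beside 33.2% and 33.1% of all genes. The gene that fell was Cx3cl1, fractalkine, the neuronal ligand of Cx3cr1, which averaged 142 CPM in cWT_SOD1 and 253 CPM in cWT cords (log2 fold change -0.84, adjusted p 6.33e-08). The receptor and its ligand moved in opposite directions in the tissue. The neuronal genes Snap25 and Chat were lower by more in the same comparison, Snap25 with a log2 fold change of -1.27 and Chat of -1.65, and a smaller neuronal share and less Cx3cl1 per neuron cannot be told apart here. Between cKO_SOD1 and cWT_SOD1 cords Cx3cl1 was the list's 1 higher gene (0.71), beside Snap25 at 1.01, and 11 were lower. Of all genes 29.1% were called in each direction there. Tgfb1, whose signal maintains the microglial program, rose 5.70-fold in cWT_SOD1 over cWT cords, its receptors Tgfbr1 4.73-fold and Tgfbr2 4.52-fold, and Csf1, a survival factor of microglia, 2.49-fold.

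Of 14 other purinergic receptors and ADP-removing enzymes tested, 8 rose and 5 fell in cWT_SOD1 over cWT cords, beside 33.2% and 33.1% of all genes. P2ry6, a UDP receptor linked to phagocytosis, rose 8.07-fold, P2rx7, an ATP-gated channel, 2.32-fold, and the nucleotidases Entpd1 and Entpd2, which remove ATP and ADP, 3.10-fold and 2.13-fold. P2ry12 rose 1.52-fold. These 4 genes were named for their small p, so they do not place P2ry12 within the list. Of the 14, 6 had a log2 fold change below 0. The channels P2rx5 (log2 fold change -1.19) and P2rx6 (-1.24) fell. Between cKO_SOD1 and cWT_SOD1 cords, 8 of the 14 were lower and 4 higher, beside 29.1% of all genes in each direction.

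Across the 16 libraries, the genes whose log2 CPM followed the mean of the marker genes most closely were Naip2 (Pearson r 0.998), Ly86 (0.997), Cyth4 (0.997), Fcer1g (0.996), Trem2 (0.996) and Capg (0.996), where all libraries share the 4-group structure. With the group means removed, the 6 closest were Naip2 (0.954), Ly86 (0.917), Fcer1g (0.917), Adora3 (0.913), Csf2rb (0.912) and Mbtps1 (0.906). Naip2, Ly86 and Fcer1g were thus among the closest by both measures. The marker genes' own 45 pairs had r from 0.753 to 0.992 over the libraries and from -0.26 to 0.859 with the group means removed. Within groups the closest pair was Fcrls with Olfml3 (0.859), and the lowest was P2ry12 with Tmem119. These correlations are descriptions over 16 libraries.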

How the data were processed

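RNA-seq libraries were made from poly-A RNA of lumbar spinal cord, per the labels' protocols, 4 mice in each of 4 groups. The submitters' processing notes name TopHat2 2.0.4, Cufflinks 2.0.2, bcl2fastq 1.8.4 and the build mm9, without their roles. No source used here names the counting tool or its strand setting. The authors deposited raw counts per gene symbol, with library totals from 14989026 to 20892530, and FPKM values per gene, scaled for transcript length and library size.

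The quasi-likelihood F-test of edgeR 4.0.16 (R 4.3.3) was run on the counts after TMM scaling and filtering by filterByExpr at its defaults, all 16 libraries in 1 fit with a coefficient per group, and Benjamini-Hochberg adjustment over the 15426 genes that passed the filter. A gene was called at an adjusted p under 0.05. The SE of a log2 fold change is its size over the root of F. In a second fit the library size was replaced by the geometric mean count of 5 macrophage genes, taken as known without error. CPM values used TMM library sizes. The scripts were tested on simulated counts. Alternatives used DESeq2 1.42.0, other scaling, no filter, only the libraries compared, FPKM on a log2 scale with limma 3.58.1, other reference genes, a replicate block and each library left out.

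The marker genes and gene lists were chosen with earlier results of these data known. Of 129 list entries 128 were matched, Spi1 through its older symbol. Named beyond the marker genes are those nearest to their mean, and from each list some of the genes with the smallest p, of which 1 is not reported here. Cx3cl1, Slc2a5, P2rx5 and P2rx6, and the host genes Med12l and Cask, were named after their values were seen. Replicate numbers were not used to pair the samples in the main fit. Over 24 pairs with the same number, deviations from the group means had r from -0.25 to 0.31 (median 0.026), with 11 over 0.1. Over 72 pairs with other numbers r ran from -0.34 to 0.28 (median 0.0022), with 22 over 0.1. Whether the numbers mark a pairing was not tested. No 2 libraries of a group agreed within sampling noise.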

Additional observations from a re-analysis of the deposited data

Results flagged for a closer look

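The effect of the transgene differed between Atg7 cKO and Atg7 cWT cords for 8 of the 10 marker genes, by the interaction term of edgeR's quasi-likelihood fit with Benjamini-Hochberg adjustment over all genes tested. The difference in log2 fold change, cKO minus cWT, was -2.45 for Fcrls, -1.85 for Olfml3, -1.43 for Cx3cr1, -1.43 for Gpr34, -1.20 for P2ry13, -0.97 for Selplg, -0.90 for Tmem119 and -0.52 for Siglech. In none of the 40 combinations of a marker gene and a group of 4 libraries was a single library far enough from the other 3 to stand out, where chance would give about 1 in 20.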

How the results depend on the processing

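The transgene effect in cWT cords (10 genes higher) and the cKO effect with the transgene (9 lower) kept the direction and call of every marker gene under all alternatives run. In cKO cords the count of marker genes called higher was 5 to 8 with a library left out, and the calls over all genes 685 to 1643, or 2480 when only the 8 libraries compared were fitted, against 1123. For Atg7 loss without the transgene, calls over all genes were 17 by DESeq2, 2 on log2(FPKM + 0.1), 9 with only the 8 libraries and 2 to 9 with a library left out, against 4, and no marker gene was called. There the sign turned for Tmem119, at -0.00167 on log2(FPKM + 0.1) and -0.00132 on log2(FPKM + 1), and for Fcrls, at 0.00100 with upper quartile scaling. With a library left out these changes ran from -0.072 to 0.10 for Cx3cr1, -0.26 to 0.17 for Fcrls, -0.026 to 0.135 for Gpr34, -0.14 to 0.029 for P2ry12, -0.13 to 0.00037 for Sall1 and -0.044 to 0.084 for Tmem119, and the interaction of Sall1 from -0.13 to 0.0089. The causes were not tested.

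Changes relative to the macrophage genes depended on the genes chosen. In cWT_SOD1 over cWT cords, Cx3cr1 was at 0.076, Gpr34 at 0.081 and Olfml3 at 0.43 against Csf1r alone, and Olfml3 at 0.23 against the sum of the 5 genes. In cKO_SOD1 over cKO cords, P2ry13 was at 0.042, Cx3cr1 at 0.22, Gpr34 at 0.23 and Olfml3 at 0.16 against Csf1r alone, Cx3cr1 at 0.17, Gpr34 at 0.17 and Olfml3 at 0.11 against the sum, and 9 genes were lower against Spi1 and Irf8, against 4 with either of the others. In cKO_SOD1 over cWT_SOD1 cords, Cx3cr1 was at -0.021 and Olfml3 at -0.31 against Csf1r alone, and Olfml3 at -0.16 against the sum. There 5 genes were higher against either, and 5 to 8 with a library left out. Ordered by CPM instead of FPKM, 4 genes in cKO_SOD1, 2 in cWT_SOD1, 2 in cKO and 4 in cWT cords held the same rank.

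With the replicate number as a block, 10 marker genes were called higher for the transgene in cWT cords, 8 for the transgene in cKO cords, 9 lower for Atg7 loss with the transgene and 9 lower for the interaction, where P2ry12 passed at -0.33 (adjusted p 0.0430). Relative to the macrophage genes, 6 were called higher in cKO_SOD1 over cWT_SOD1 cords under the block. The block was no part of the design, and 7 of 16 libraries correlated best with their own number.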
